A study of Drosophila melanogaster with 23 samples.

Results

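The gene set described here comprised maternally deposited transcripts that fell in the first hours of Drosophila melanogaster embryogenesis and were high again before hatching. Members were chosen by their levels alone. A gene entered the set when its mean was at least 20 RPM (reads per 1000000 reads counted at promoters in a library) at 0-2 h after egg laying and at 20-23 h, and when each of these means was at least 4 times its mean at 5-11 h. Of 10622 genes in the gene table, 2905 reached 20 RPM at both ends and 58 of these, or 2.00%, met the whole rule. The other 2847 genes with at least 20 RPM at both ends served for comparison. Because the rule used the levels at 0-2, 5-11 and 20-23 h, these levels are given as a description, without a test.

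The eggs of flies are loaded by the mother with RNA, and this RNA drives the first nuclear divisions while the zygotic genome is still silent. Most of the strictly maternal load is destroyed around the maternal-to-zygotic transition, when the embryo begins to transcribe its own genes. A gene of this kind can be transcribed again later, in differentiating tissues, and can do so from its maternal promoter or from another one. RAMPAGE sequences the 5′ ends of capped RNA molecules, so that each read marks a transcription start site, and a transcription start site cluster (TSC), a short stretch where such reads pile up, was read as 1 promoter.

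Whole staged embryos of the y; cn bw sp strain were profiled in 23 consecutive windows of 1 h, covering 0-23 h after egg laying, as the second biological replicate of a time series. All groups carried the same strain markers, no agent was given, and the samples differed only in age. Each window was 1 library of total RNA from pooled embryos, barcoded at reverse transcription and processed with the other 22 as one pooled library, so no window had a replicate of its own. The windows were placed in 8 groups (0-2, 2-5, 5-8, 8-11, 11-14, 14-17, 17-20 and 20-23 h), and every p-value below measures the spread between neighbouring windows. In whole embryos, fewer cells of a type and less RNA per cell cannot be told apart.

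The libraries held between 286206 reads (5-6 h) and 14705005 reads (1-2 h), with a median of 2664024. A count of 3 reads was worth 0.204 RPM in the 1-2 h library but 10.5 RPM in that of 5-6 h and 7.88 RPM in that of 22-23 h, so that single windows of low genes were coarse at those ages. The markers of age moved as their labels imply: the summed level of 11 late cuticle genes at 0-2 h was 0.239% of that at 20-23 h, and the sum of 10 germline and strictly maternal markers lay between 206 and 284 RPM at 20-23 h, against 2557 to 2878 RPM at 0-2 h. The remainder of these maternal markers at 20-23 h was 8.91% of their level at 0-2 h. Single members stood at 20.5% to 1780% of theirs. The 0-2 h sums of the gut, muscle and combined fat body and blood cell markers were 0.0959%, 3.58% and 25.9% of their 20-23 h sums. The range over single members was 5.63% to 488%. The rule required members to be high at both ends, so neither of their ranges can be set against a marker sum. A remainder of maternal RNA in members at 20-23 h was not tested. The part of these cell types in the members' levels was not tested.

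The 58 members together made up 1.23% of all reads in the first window, 0.0601% in that of 7-8 h and 1.10% in that of 21-22 h. The median of the members' mean levels was 85.6 RPM at 0-2 h, dropped to 6.81 RPM at 5-11 h and stood at 77.5 RPM for 20-23 h. Through the 8 groups the median followed a U shape, with 85.6, 12.0, 5.91, 8.91, 21.0, 39.1, 53.5 and 77.5 RPM in order of age. The other 2847 genes had medians of 148, 127, 126, 126, 113, 80.5, 62.4 and 65.8 RPM in the same groups. The rule had removed genes with such a trough from this set, so its lack of one follows from the selection. In all 58 members every window of 20-23 h and every window of 0-2 h lay above every window of 5-11 h. The rule chose members by the means of these same windows, so this describes the selection. It was not counted in the other genes.

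**Figure D1:**
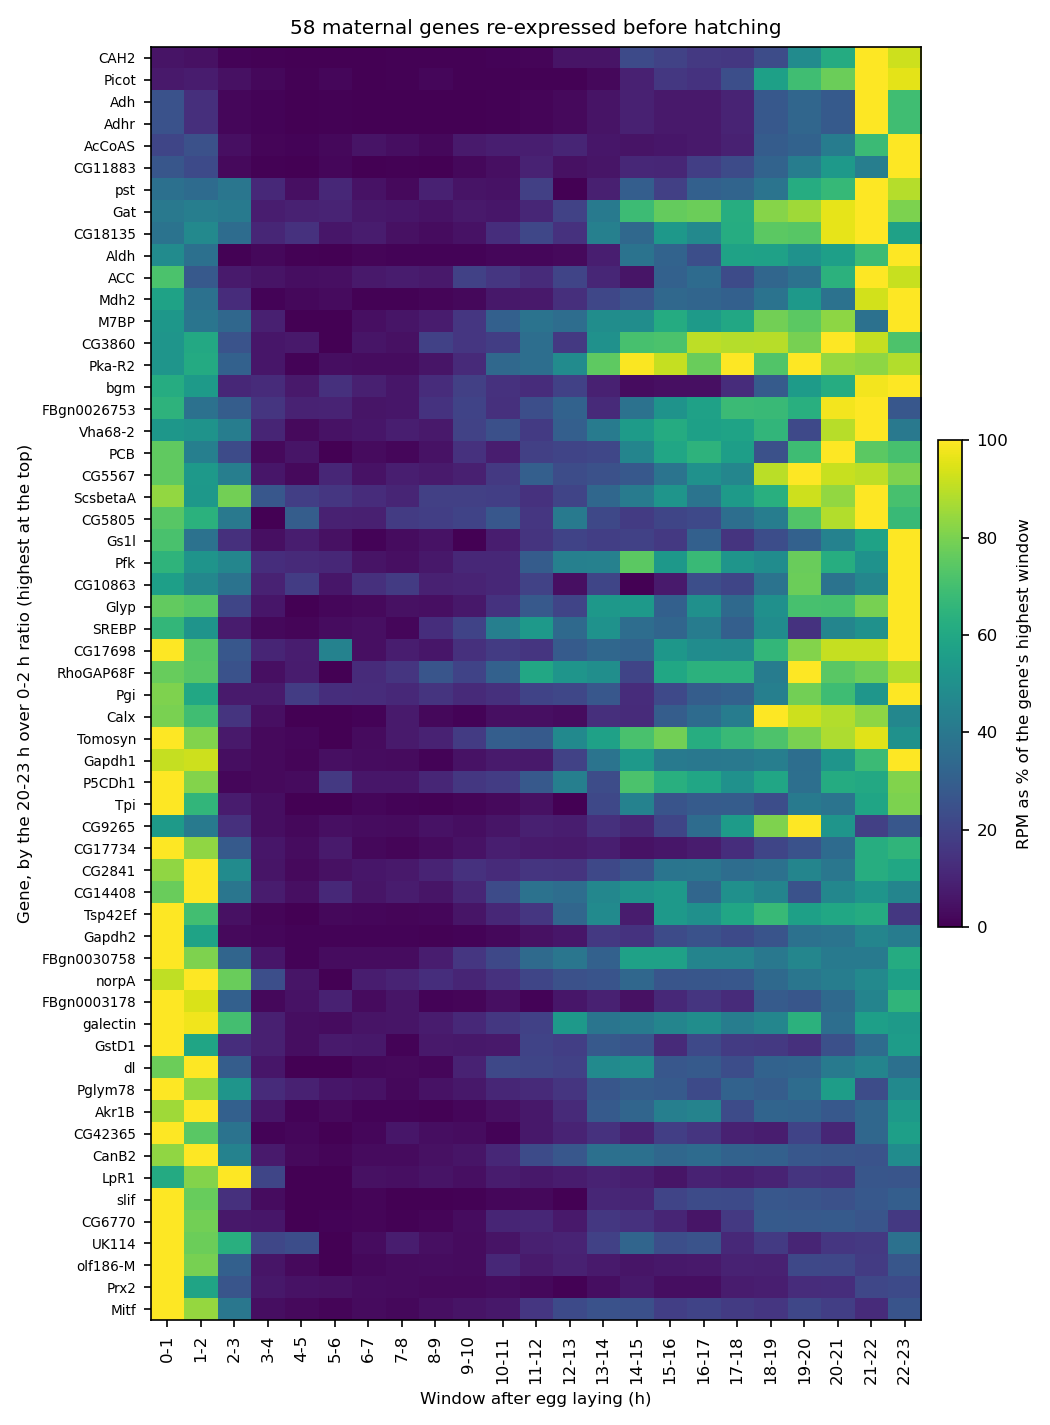
Level of each of the 58 members (rows) in the 23 windows (columns, hours after egg laying), as a percentage of the gene's own highest window; rows are ordered by the ratio of the 20-23 h mean to the 0-2 h mean, highest at the top. The windows of 5-11 h are darker than both ends in every row; the early end is faint in the rows at the top, led by CAH2 (ratio 17.8), and the late end is faint in those at the bottom, down to Mitf (ratio 0.205).

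The fall was fast. At 2-3 h, 39 of the 58 members were already below 50% of their 0-2 h mean, compared with 502 of the 2847 other genes (17.6%), and at 3-4 h all 58 members were, compared with 27.4% of the other genes. The rule did not use these 2 windows, but it required each member to lie at least 4-fold below this mean at 5-11 h. It also took the genes that met it out of the comparison set, so a gap between the sets was built in. The lowest group mean was that of 5-8 h in 46 members, that of 2-5 h in 5 and that of 8-11 h in 5. The exceptions were Prx2, a peroxiredoxin, which was lowest at 11-14 h, and bgm, which was lowest at 14-17 h. At 5-11 h the members had between 16 and 6707 reads over 6 libraries, with a median of 128 reads, so that the depth of the trough is less certain for the lowest genes than for the others.

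The return was slow and varied between members. The number of members at or above 50% of their 20-23 h mean was 3 in the window of 10-11 h, 24 in that of 13-14 h, 33 in that of 17-18 h and 49 in that of 19-20 h. The median member had reached 30.7% of its 20-23 h level at 11-14 h, went on to 53.5% at 14-17 h and stood at 69.1% by 17-20 h. The highest group mean was at 20-23 h in 29 members and at 0-2 h in 26, and the 3 others, Calx, CG9265 and Pka-R2, peaked at 17-20 h.

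The balance between the ends spread widely and depended on the scaling. On RPM the ratio of the 20-23 h mean to the 0-2 h mean had a median of 1.06 and ranged between 0.205 and 17.8. The 20-23 h windows were all above the 0-2 h windows in 13 members, all below them in 23, and overlapped with them in 22. On TMM-scaled values, which correct for differences in library composition and were added here after seeing the data, the median ratio was 1.78, with the late windows all above the early ones in 31 members, all below in 12 and overlapping in 15. On neither scale were these counts made in the other genes. With so few windows at each end, full separation can also arise by chance, so the counts describe the members alone. Comparisons of the ends of single genes below are on RPM. Examples of both extremes, chosen after their values were seen, are CAH2, Picot and Mitf. CAH2, a carbonic anhydrase, had 264, 428 and 397 RPM at 20-23 h, against 21.9 and 19.0 RPM at 0-2 h. Picot had 287, 369.6 and 355 RPM at 20-23 h, against 25.5 and 28.7 RPM at 0-2 h. Mitf, a transcription factor of the lysosomal programme, had the opposite balance, with 54.4, 36.6 and 76.2 RPM at 20-23 h, against 295 and 249 RPM at 0-2 h.

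Enzymes of glycolysis and glycogen breakdown formed the largest group of members on any of the gene lists. Of 21 measured genes on a list of carbohydrate enzymes, 13 reached 20 RPM at both ends and 7 were members: Tpi, Gapdh2, Gapdh1, Glyp, Pglym78, Pfk and Pgi. The list was drawn up with earlier results of these data known, so its count is no independent evidence. For these 7 genes the smaller of the 2 ratios to the 5-11 h mean was 49.8 for Tpi, 38.8 for Gapdh2, 18.3 for Gapdh1, 13.4 for Glyp, 7.23 for Pglym78, 7.15 for Pfk and 5.39 for Pgi.

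Tpi, triosephosphate isomerase, had 27.7, 42.2 and 57.8 RPM at 20-23 h and 71.9 and 47.3 RPM at 0-2 h. Its 6 windows of 5-11 h had a lowest value of 0, a median of 0.904 and a highest value of 1.75 RPM, and they held 20 reads in all. Gapdh2, one of a pair of glyceraldehyde-3-phosphate dehydrogenase genes, had 655, 777 and 714 RPM at 20-23 h and 1706 and 989 RPM at 0-2 h, with a range of 12.4 to 33.8 RPM and a median of 16.3 RPM at 5-11 h. Both genes thus lost nearly all of their reads between the ends, and the 20-23 h windows of Gapdh2 lay below its 0-2 h windows while those of Tpi overlapped with its 0-2 h windows.

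Gapdh1, the other gene of that pair, had 42.4, 55.5 and 81.4 RPM at 20-23 h and 74.2 and 75.3 RPM at 0-2 h, with 0.751 to 5.83 RPM (median 3.17) at 5-11 h. Glyp, glycogen phosphorylase, had 156, 175 and 221 RPM at 20-23 h and 168 and 162 RPM at 0-2 h, with 3.49 to 32.1 RPM (median 9.34) at 5-11 h. In both genes the windows of the 2 ends overlapped. Pglym78, a phosphoglycerate mutase, had 229, 95.4 and 194 RPM at 20-23 h, all below its 410.3 and 344 RPM at 0-2 h. Pfk, phosphofructokinase, had 39.4, 32.2 and 63.0 RPM at 20-23 h and 41.0 and 32.7 RPM at 0-2 h. Pgi, phosphoglucose isomerase, had 74.2, 56.6 and 108 RPM at 20-23 h and 86.8 and 64.5 RPM at 0-2 h. The ends again overlapped in Pfk and Pgi, so that among the 7 enzymes Gapdh2 and Pglym78 were the ones with every late window below the early ones.

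The other 6 carbohydrate enzymes with at least 20 RPM at both ends did not meet the rule. Eno (enolase) and Hex-A (hexokinase) had the trough but fell short of the limit late. Eno averaged 187 RPM at 20-23 h and 342 RPM at 0-2 h around a trough of 53.4 RPM, a smaller ratio of 3.51. Hex-A averaged 198 RPM at 20-23 h and 277 RPM at 0-2 h around a trough of 56.2 RPM, a smaller ratio of 3.53. Ald1 (aldolase) had no early trough, with means of 631 RPM at 20-23 h and 120.2 RPM at 0-2 h beside 121 RPM in the middle, and the smaller ratios of Pgk, Gpdh1 and Men were 1.75, 1.45 and 1.38.

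**Figure D2:**
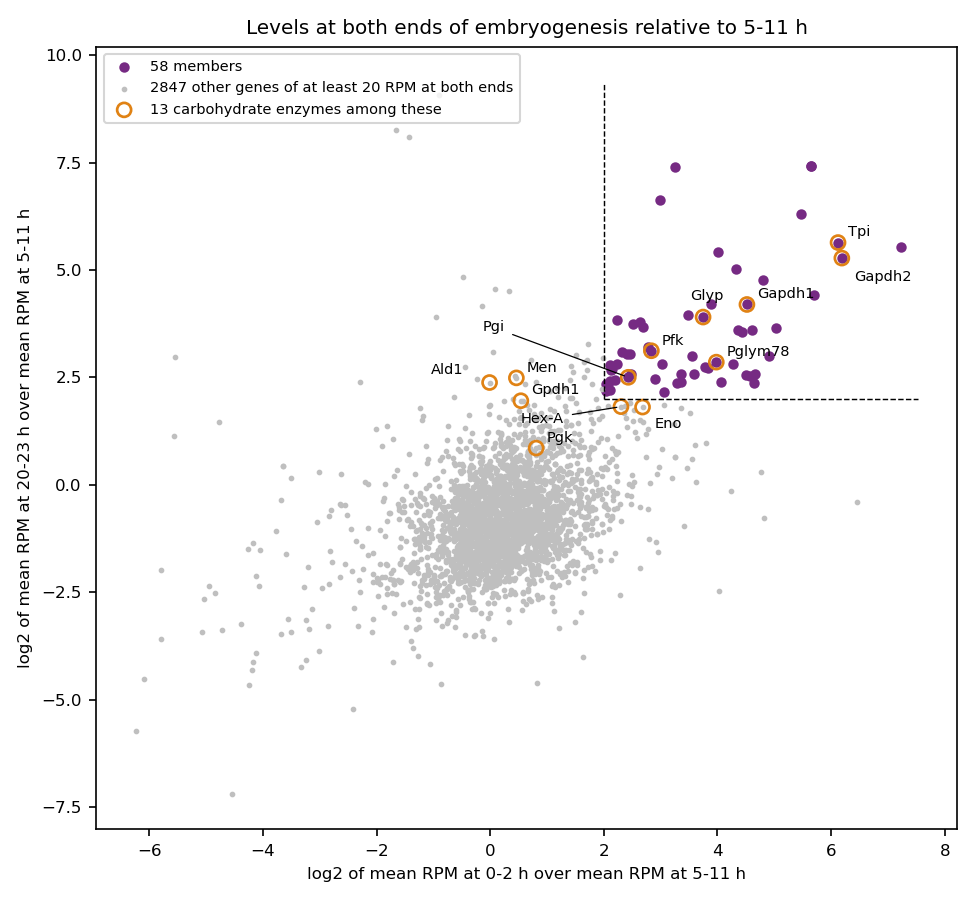
Ratio of the mean RPM at 20-23 h to that at 5-11 h (y axis, log2) against the ratio of the mean at 0-2 h to that at 5-11 h (x axis, log2) for the 58 members (purple) and the 2847 other genes of at least 20 RPM at both ends (grey), with 13 carbohydrate enzymes ringed and the 4-fold limits dashed. Of the ringed genes 7 lie inside the limits, led by Tpi and Gapdh2, while Eno and Hex-A lie just below the horizontal limit at 3.51 and 3.53 times.

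Adh, Adhr, Aldh, Akr1B and Mdh2 were among the 15 members with the largest smaller ratio. Adh, alcohol dehydrogenase, had 219, 775 and 538 RPM at 20-23 h and 195 and 104 RPM at 0-2 h, with 2.25 to 4.37 RPM (median 2.71) at 5-11 h. Adhr, its downstream neighbour, is known to be carried on the same transcript, and its rows held the same reads as those of Adh, so that the 58 members were 57 distinct sets of reads. The late windows of this transcript were all above its early ones, and its smaller ratio, 50.0, was the largest of the set, beside 49.8 for Tpi.

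Aldh, an aldehyde dehydrogenase, had 109.5, 133 and 194 RPM at 20-23 h, all above its 93.9 and 71.5 RPM at 0-2 h, and at most 3.21 RPM at 5-11 h. Akr1B, an aldo-keto reductase, had 73.0, 87.7 and 142 RPM at 20-23 h, all below its 227 and 264 RPM at 0-2 h, with 1.13 to 10.5 RPM (median 3.68) at 5-11 h. Mdh2, mitochondrial malate dehydrogenase, had 44.7, 109.9 and 118 RPM at 20-23 h and 68.1 and 44.1 RPM at 0-2 h, with 0.838 to 7.58 RPM (median 1.96) at 5-11 h. The 3 enzymes thus shared the trough but not the balance between the ends.

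A pair of membrane transporters had nearly empty troughs. slif, an amino acid transporter, had 23.96, 26.6 and 28.9 RPM at 20-23 h, all below its 97.0 and 74.4 RPM at 0-2 h. At 5-11 h it had 16 reads in all, with a range of 0 to 1.75 RPM and a median of 0.243 RPM. Calx, a sodium/calcium exchanger, had 60.2, 56.6 and 31.5 RPM at 20-23 h and 54.5 and 47.2 RPM at 0-2 h, with 0 to 5.03 RPM (median 1.12) at 5-11 h. The late windows of Calx overlapped with the early ones.

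The remaining genes of the 15 with the largest smaller ratios were CG11883, Gs1l, CG42365 and CG17734. CG11883 had 107, 85.4 and 199.6 RPM at 20-23 h, all above its 53.2 and 45.02 RPM at 0-2 h. Gs1l had 35.0, 45.5 and 78.8 RPM at 20-23 h and 56.0 and 29.6 RPM at 0-2 h. CG42365 had 7.41, 23.3 and 39.4 RPM at 20-23 h, against 69.9 and 52.0 RPM at 0-2 h, and the lowest of these windows lay near its highest value at 5-11 h, 4.19 RPM. CG17734 had 117, 209.7 and 221 RPM at 20-23 h, all below its 337 and 281 RPM at 0-2 h.

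The other lists held fewer members. Over all genes with at least 20 RPM at both ends, the share of members was 58 of 2905 (2.00%). On the redox list 2 of the 14 genes with at least 20 RPM at both ends met the rule, GstD1, a glutathione S-transferase, and Prx2. GstD1 had 60.5, 87.7 and 137 RPM at 20-23 h, against 248 and 145 RPM at 0-2 h, and Prx2 had 50.4, 83.2 and 86.7 RPM at 20-23 h, against 389 and 227 RPM at 0-2 h. On the lipid list 2 of 11 did, ACC and AcCoAS, which make malonyl-CoA and acetyl-CoA. AcCoAS had 65.2, 105 and 155 RPM at 20-23 h, all above its 32.5 and 38.4 RPM at 0-2 h. The nutrient-sensing list gave 1 member of 15 (slif) and the immunity list 1 of 7 (dl, the Rel-family factor of the dorsal-ventral axis). No member came from the lists of heat shock proteins (0 of 5), lysosome (0 of 3), autophagy (0 of 9), circadian clock (0 of 4) or ecdysone response (0 of 4), nor from the marker lists. With a share of 2.00% over all such genes, lists of this size can lack a member without differing from the rest.

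A few members carried no name in the gene table used and are given by their identifiers, FBgn0003178, FBgn0030758 and FBgn0026753. FBgn0026753 had the highest levels of the set, with 3054, 3108 and 841 RPM at 20-23 h and 2010.0 and 1158 RPM at 0-2 h. Its 5-11 h windows held 171 to 622 RPM, and their mean of 364 RPM was the highest of the set. The members were spread over the genome, with 14 on chromosome arm 2R, 12 on 2L, 12 on 3L, 11 on 3R, 7 on X and 2 on chromosome 4.

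At the edge of the rule the values were close. Just inside the limit of 4 were CG5805 (smaller ratio 4.11), SREBP (4.13), the regulator of lipid synthesis, and ScsbetaA (4.31), a subunit of succinyl-CoA synthetase. Just outside were CG8066 (3.96), CG8993 (3.92) and Gclc (3.74), the catalytic subunit of the enzyme that starts glutathione synthesis.

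Whether the members had already risen before 20 h was asked in windows that the rule did not use, 17-20 h against 11-14 h. A gene of the set must climb somewhere between 5-11 h and 20-23 h, so the comparison locates this climb and is no separate evidence that it occurred. Of 58 members, 23 were higher at 17-20 h and 0 were lower (limma on log2(RPM + 1), Benjamini-Hochberg adjusted p under 0.05), while 12.4% of all 7940 genes tested were higher and 40.6% were lower. Adh and Adhr, which hold the same reads, are both among the 23. The median log2 difference was +1.11 over the members and -0.79 over all genes tested. Among the 2847 other genes, 66 were higher (2.32%) and 1469 were lower, with a median of -0.85. At an unadjusted p under 0.05 the number of members lower was also 0, and it was 0 in limma after TMM scaling, in edgeR and in DESeq2.

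The downward shift of all genes depended on the scaling. TMM factors lay between 0.547 (17-18 h) and 1.33 (7-8 h), and the summed late cuticle markers took 114300 to 141300 RPM at 17-20 h, against 27750 to 45640 RPM at 11-14 h. On TMM-scaled values the median over all genes was 0.08 and that over members 1.98, with 35 members higher and 0 lower, beside 21.0% of all genes higher and 8.67% lower. In edgeR on the recovered reads 39 members were higher and 0 lower, beside 18.9% higher and 8.84% lower of all genes. Without the 7 libraries of under 1000000 reads, an alternative added after seeing the data, 14 members were higher, beside 9.08% of the 7497 genes then tested.

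**Figure D3:**
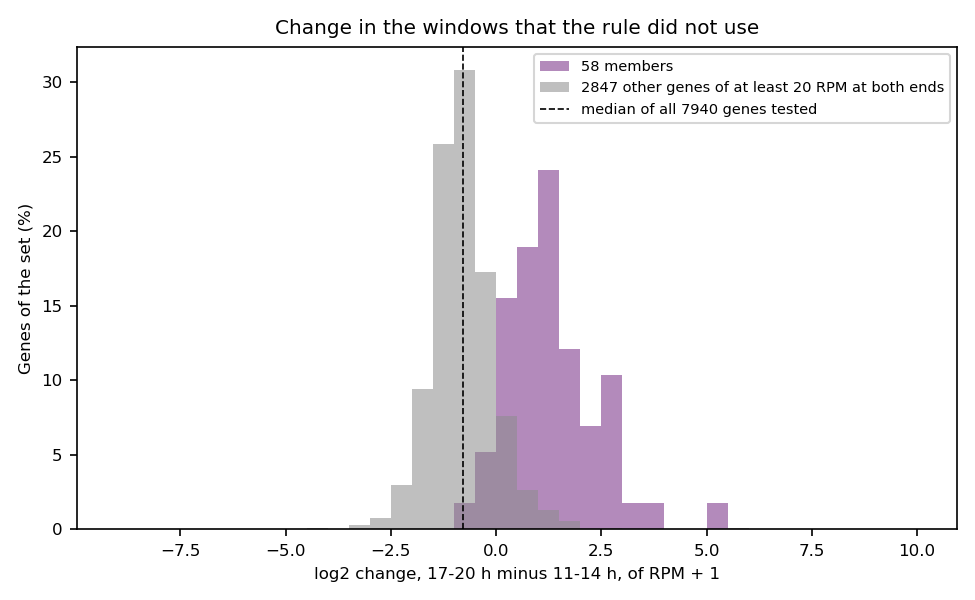
Distribution of the log2 difference, 17-20 h minus 11-14 h, of RPM + 1 over the 58 members (purple) and the 2847 other genes of at least 20 RPM at both ends (grey), as a percentage of the genes of each set; the dashed line is the median of all 7940 genes tested. The members lie to the right, with a median of 1.11 against -0.85 in the other genes.

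The largest differences in this interval were in Picot and Aldh. Picot had 88.5, 209 and 257 RPM at 17-20 h, against 2.84, 2.28 and 8.38 RPM at 11-14 h, a log2 difference of 5.11 ± 0.59 (SE, limma adjusted p = 8.03e-07). Aldh had 112, 111 and 98.8 RPM at 17-20 h, against 3.24, 4.56 and 16.0 RPM at 11-14 h, a log2 difference of 3.87 ± 0.51 (adjusted p = 3.63e-06). In both genes the groups were far apart, and Aldh was at a similar level in all windows of 17-20 h.

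Calx had 28.7, 68.2 and 62.9 RPM at 17-20 h, against 2.84, 2.28 and 9.11 RPM at 11-14 h (log2 difference 3.34 ± 0.72, limma adjusted p = 7.55e-04). slif had 21.8, 26.3 and 25.7 RPM at 17-20 h, against 2.03, 0 and 10.6 RPM at 11-14 h (2.96 ± 0.77, adjusted p = 0.00322). CG9265 had 96.1, 141 and 174 RPM at 17-20 h, against 15.0, 13.7 and 24.1 RPM at 11-14 h (2.89 ± 0.50, adjusted p = 9.57e-05). Adh had 77.4, 212 and 257 RPM at 17-20 h, against 10.5, 20.5 and 42.3 RPM at 11-14 h (2.88 ± 0.72, adjusted p = 0.00255). The groups did not overlap in any of these 4 genes.

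The glycolytic members were split by the test. Gapdh2 had 384, 439.9 and 639 RPM at 17-20 h, against 78.2, 105 and 281 RPM at 11-14 h, a log2 difference of 1.84 ± 0.41 (limma adjusted p = 9.59e-04). Tpi had 21.0, 16.9 and 29.5 RPM at 17-20 h, against 3.24, 0 and 15.7 RPM at 11-14 h, and its difference of 2.47 ± 0.73 (adjusted p = 0.00801) became 1.45 (adjusted p = 0.0771) without the 12-13 h window. Pgi had 33.5, 46.3 and 84.7 RPM at 17-20 h, against 21.5, 22.8 and 29.2 RPM at 11-14 h (1.04 ± 0.39, adjusted p = 0.0308), a call that was lost when 11-12, 12-13, 18-19 or 19-20 h was left out.

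Gapdh1 (1.11, adjusted p = 0.0635), Pglym78 (0.90, adjusted p = 0.133), Pfk (0.59, adjusted p = 0.257) and Glyp (0.65, adjusted p = 0.526) did not pass the limma test on RPM, and the first 3 of these passed on TMM-scaled values with adjusted p = 0.00309, 0.0105 and 0.00843. Of the 21 genes tested on the carbohydrate list 7 were higher at 17-20 h and 2 lower, with a median log2 difference of 0.90, and on TMM-scaled values 15 were higher and 0 lower. The redox list had 2 higher and 3 lower of 28 tested, the lipid list 2 and 2 of 21, the nutrient-sensing list 2 and 7 of 21, and the immunity list 1 and 4 of 17. Lists without a member had 0 higher and 4 lower of 9 (heat shock proteins), 0 and 7 of 13 (lysosome), 0 and 6 of 19 (autophagy), 0 and 3 of 6 (circadian clock), and 2 and 5 of 11 (ecdysone response). On RPM, 12.4% of all genes were higher and 40.6% lower. On TMM-scaled values the redox, lipid, nutrient-sensing and immunity lists had 7 and 1, 3 and 0, 4 and 2, and 4 and 0. The lists without a member then had 1 and 1 (heat shock proteins), 0 and 1 (lysosome), 3 and 0 (autophagy), 0 and 1 (circadian clock), and 3 and 4 (ecdysone response).

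The remaining 13 members called were CAH2 (2.83 ± 0.58, limma adjusted p = 4.6e-04), pst (2.66 ± 0.71, adjusted p = 0.00384), FBgn0003178 (2.01, adjusted p = 0.0178), CG5567 (1.48, adjusted p = 0.0368), CG3860 (1.40, adjusted p = 0.0236), Prx2 (2.30 ± 0.53, limma adjusted p = 0.00122), CG11883 (2.21, adjusted p = 0.00593), Gat (1.80, adjusted p = 0.00325), FBgn0026753 (1.67, adjusted p = 0.00441), ScsbetaA (1.62, adjusted p = 0.00247), Mdh2 (1.59, adjusted p = 0.0353), CG18135 (1.55, adjusted p = 0.00849) and AcCoAS (1.29, adjusted p = 0.0416). The calls of Mdh2 and AcCoAS were lost without several single libraries, and that of CG18135 without 12-13 h (adjusted p = 0.0548). GstD1 had a log2 difference of -0.44 on RPM and 0.45 on TMM-scaled values, and SREBP of -0.70 and 0.20, neither of them past the threshold. Gs1l (0.31), CG42365 (0.23), CG17734 (1.32), Akr1B (1.11), Tomosyn (0.78), M7BP (0.77), Vha68-2 (0.65), FBgn0030758 (0.32), ACC (1.09), dl (0.09) and CG5805 (0.92) did not pass the limma test on RPM. Of these, CG17734, ACC and CG5805 passed on TMM-scaled values (limma adjusted p = 0.00569, 0.00973 and 0.045) and in edgeR, and Tomosyn and M7BP passed in edgeR alone (adjusted p = 0.0193 and 0.0262).

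The second question was whether the late transcripts started at the promoters used for the maternal load. The rule used the sum over the promoters of a gene and not its split, so that promoter use could be tested. The test asked whether the reads of a gene were divided differently between its TSCs at 20-23 h than at 0-2 h, over TSCs of at least 5 RPM at either end. Of 58 members 33 had 1 such TSC and could not be tested, and 25 had 2 or more. Adh and Adhr, which hold the same reads, are both among the 25 and among the calls of both tools below. Of these 25, limma called 15 (background 42.2% of 1482 genes tested) and edgeR on the recovered reads called 18 (background 43.7%), and the 15 calls of limma were all made by edgeR too. Among the 877 other genes tested that were at 20 RPM or more at both ends, limma called 386 and edgeR 434, with 376 called by both. Without the 7 libraries of under 1000000 reads, which leaves the late end with the 20-21 h window alone (assumed to vary like the other groups), limma called 14 members of 24 tested, beside 38.9% of 1452 genes.

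The main TSC, the one with the highest mean, differed between 20-23 h and 0-2 h in 11 of 58 members (19.0%), against 152 of 2847 other genes (5.34%), a difference that is described here and was not tested. The 2 main TSCs were over 1 kb apart in 8 members (13.8%) and in 118 other genes (4.14%). The late one was downstream of the early one in 8 of the 11 members and upstream in 3, and it was downstream in 84 of the 152 other genes (55.3%). In 12 members (20.7%) at least 1 TSC had a mean of 5 RPM or more at 20-23 h and under 1 RPM at 0-2 h, against 210 of the other genes (7.38%). The reverse kind, 5 RPM or more at 0-2 h and under 1 RPM at 20-23 h, was found in 4 members (6.9%), Adh, Adhr, slif and LpR1, against 146 other genes (5.13%). Adh and Adhr hold the same reads, yet both are counted here, among the 11 members with a changed main TSC and among the 8 with it downstream. These 2 limits were chosen after the values were seen. The lower one was not equally strict at the ends. A single read was worth 0.121 and 0.068 RPM at 0-1 and 1-2 h, but 1.11 and 2.63 RPM at 21-22 and 22-23 h. The counts of the 2 kinds therefore cannot be set against each other. Coordinates below are those of release 5 of the genome (dm3), counted from 1.

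**Figure D4:**
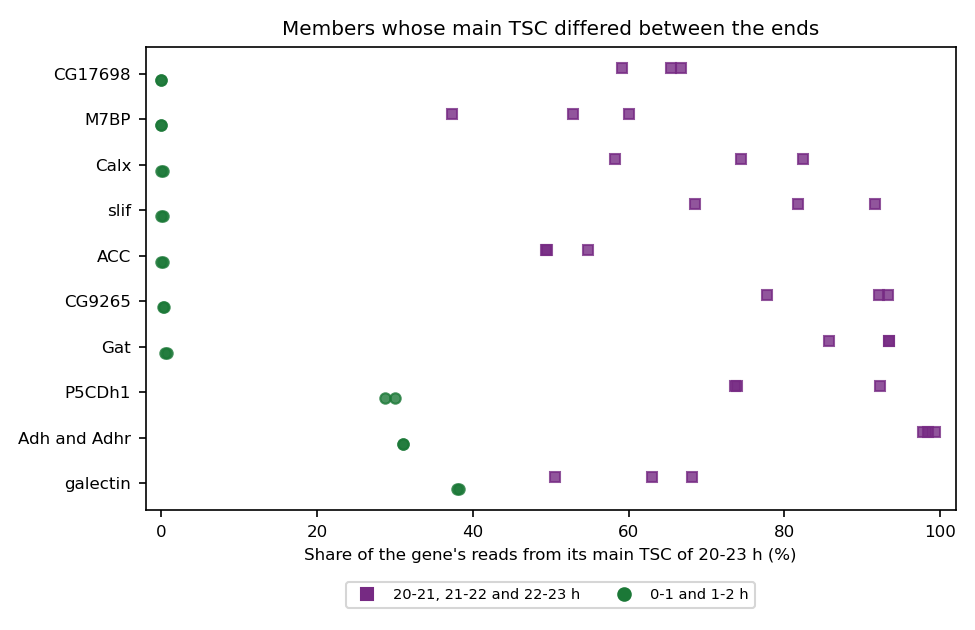
Share of a gene's reads that came from its main TSC of 20-23 h (x axis, percent), in the 3 windows of 20-23 h (purple squares) and in the 2 windows of 0-2 h (green circles), for the 11 members whose main TSC differed between the ends; Adh and Adhr share all reads and have 1 row. The late share exceeds the early share in every window of every row, and in slif, Calx, CG9265, Gat, CG17698, ACC and M7BP the early share is under 1%.

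Adh shows the change between a pair of promoters that are well known in this gene, a distal one used in adults and a proximal one used in larvae. The distal TSC (2L:14615519-14615591, plus strand) had 0.581, 0 and 0 RPM at 20-23 h, against 123 and 61.0 RPM at 0-2 h. The proximal TSC, 737 bp downstream (2L:14616248-14616336), had 214, 770.2 and 531 RPM at 20-23 h, against 60.5 and 32.1 RPM at 0-2 h. The distal TSC thus gave 4 of 2413 reads of the gene at 20-23 h (0.166%, 95% Wilson interval 0.0645% to 0.425%), against 60.9% at 0-2 h. Such intervals cover counting error only.

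The proximal TSC gave 31.0%, 40.6%, 35.0%, 36.4%, 47.0%, 76.1%, 95.9% and 98.3% of the Adh reads in the 8 groups in order of age. The share therefore stayed under 50% through the trough, where a group held as few as 20 reads of the gene, and was above it from 14-17 h on. The distal TSC was itself active again at 11-14 and 14-17 h, at means of 10.3 and 12.3 RPM, before it went to 1.81 RPM at 17-20 h. The use of the proximal TSC relative to the gene's other TSCs was higher at 20-23 h by 8.02 ± 0.88 on the log2 scale (SE) in limma. The edgeR value for this TSC, 1.17, is its change against that of the whole gene. It is another quantity than that of limma, so the 2 sizes cannot be compared, here or in the genes below. The adjusted p for the gene was 3.14e-11 in limma and 7.02e-15 in edgeR.

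In slif the replacement was complete at this depth. The early TSC (3L:22878222-22878343, plus strand) had 0 reads in each window of 20-23 h, against 91.1 and 64.2 RPM at 0-2 h, and 0 of the 200 reads of the gene at 20-23 h allows a share of up to 1.5% by the limit of 3 reads used for counts of 0 (Wilson upper bound 1.88%). The late TSC, 4080 bp downstream (3L:22882352-22882374), had 16.4, 24.4 and 23.6 RPM at 20-23 h, against 0 and 0.136 RPM at 0-2 h. It gave 68.5%, 91.7% and 81.8% of the reads of the gene at 20-23 h, against 0% and 0.183% at 0-2 h, and the rest of the late reads came from TSCs of under 5 RPM. Its use was higher late by 10.65 ± 0.98 against the other TSC in limma (log2 ± SE), and by 6.45 against the whole gene in edgeR. The adjusted p for the gene was 2.16e-12 in limma and 1.88e-12 in edgeR.

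Calx changed in the other direction along the gene. Its late TSC (3R:16811641-16811913, plus strand) lay 4006 bp upstream of the early one and had 49.7, 42.2 and 18.4 RPM at 20-23 h, against 0 and 0.068 RPM at 0-2 h. The early TSC (3R:16815759-16815807) had 6.1, 9.99 and 13.1 RPM at 20-23 h, against 52.4 and 45.2 RPM at 0-2 h, and was thus still in use late. The late TSC gave 82.4%, 74.5% and 58.3% of the reads at 20-23 h. Its use was higher by 7.34 ± 0.98 log2 against the other TSC in limma, and by 6.15 against the whole gene in edgeR. The adjusted p for the gene was 2.38e-08 in limma and 5.8e-11 in edgeR. The total of Calx was about equal at the ends, with a ratio of 0.973, while its promoters were not.

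CG9265 had its late TSC (2L:21069877-21069927, minus strand) 1625 bp downstream of the early one. This TSC had 83.9, 31.1 and 36.8 RPM at 20-23 h, against 0.242 and 0.272 RPM at 0-2 h. The early TSC (2L:21071435-21071620) had 7.11, 2.22 and 10.5 RPM at 20-23 h, against 94.9 and 71.9 RPM at 0-2 h. The late TSC gave 92.2%, 93.3% and 77.8% of the reads at 20-23 h (relative use higher by 8.86 ± 0.81 log2, adjusted p = 1.88e-12 in limma and 4.29e-13 in edgeR).

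Gat, a GABA transporter, was similar. Its late TSC (4:650243-650385, plus strand) lay 3945 bp downstream of the early one (4:646304-646433) and had 62.0, 64.4 and 47.3 RPM at 20-23 h, against 0.121 and 0.204 RPM at 0-2 h. The early TSC had 2.9, 1.11 and 0 RPM at 20-23 h, against 27.7 and 29.0 RPM at 0-2 h. The late TSC gave 0.605%, 0%, 2.78%, 23.8%, 89.2%, 92.3%, 93.0% and 93.1% of the reads in the 8 groups in order of age, so that most Gat reads came from the late TSC by 11-14 h. Its use was higher late by 9.51 ± 0.74 against the other TSC in limma (log2 ± SE), and by 4.86 against the whole gene in edgeR. The adjusted p for the gene was 1.25e-14 in limma and 1.88e-14 in edgeR.

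**Figure D5:**
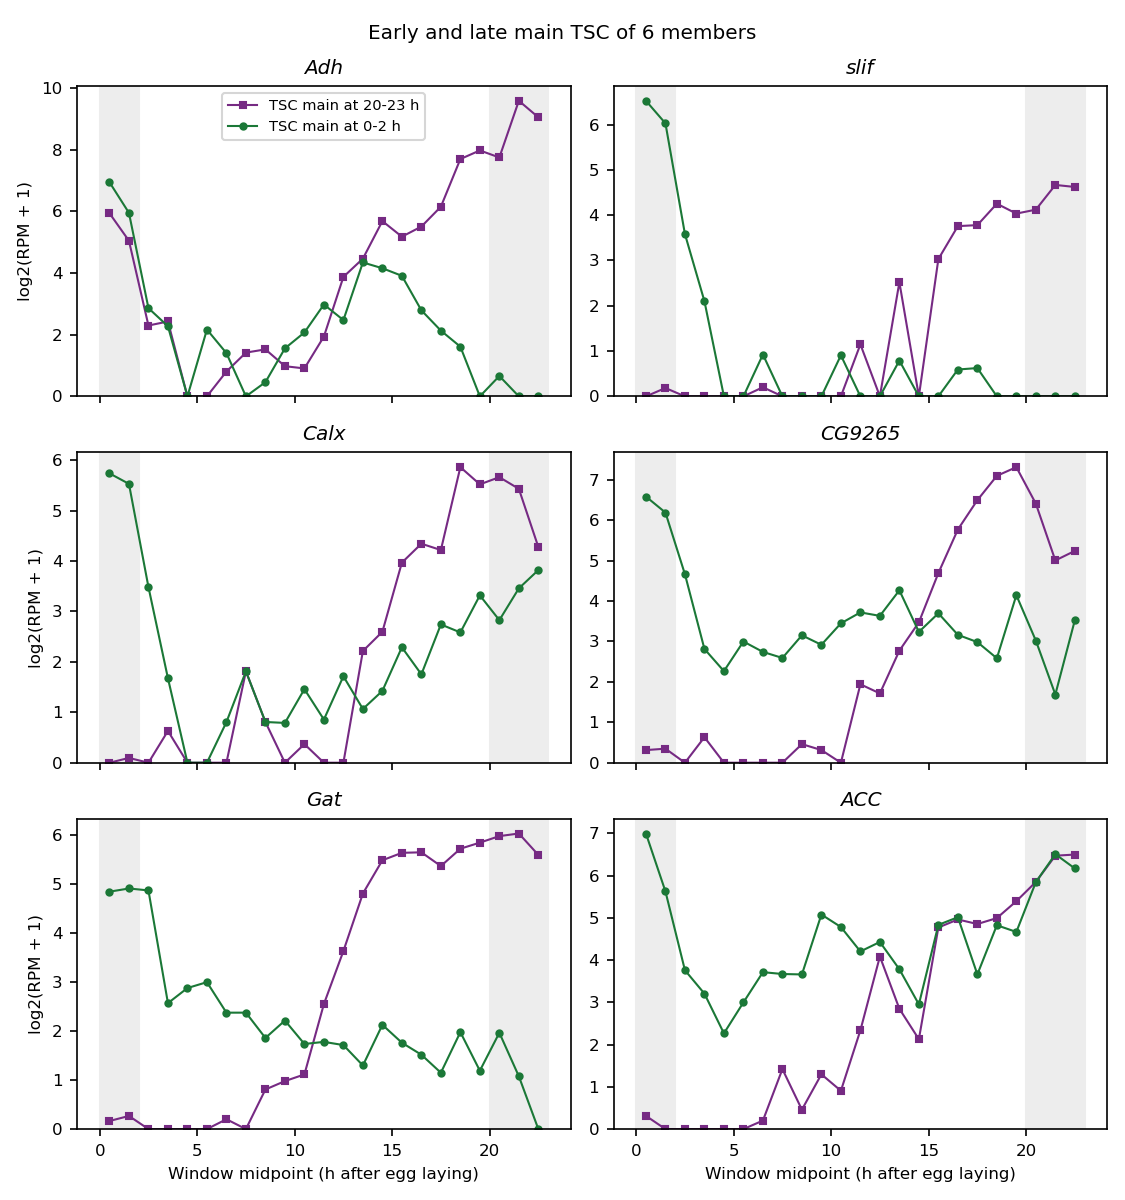
Level of the main TSC of 20-23 h (purple squares) and of the main TSC of 0-2 h (green circles) in the 23 windows, as log2(RPM + 1) against the midpoint of the window in hours after egg laying, for Adh, slif, Calx, CG9265, Gat and ACC; the windows that define the ends are shaded. In slif the early TSC is at 0 RPM at 20-23 h, whereas in ACC both TSCs are between 56.5 and 89.9 RPM at 20-23 h.

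In a further group the maternal promoter came back and a second one was added to it. ACC, acetyl-CoA carboxylase, had its early TSC (2R:3877188-3877331, minus strand) at 56.5, 89.9 and 70.9 RPM at 20-23 h, against 127 and 48.4 RPM at 0-2 h. The second TSC, 2484 bp downstream (2R:3874702-3874848), had 56.6, 87.7 and 89.3 RPM at 20-23 h, against 0.242 and 0 RPM at 0-2 h. The second one gave 49.5%, 49.4% and 54.8% of the reads late, so that the promoters were about equal (adjusted p = 1.19e-07 in limma and 1.28e-10 in edgeR).

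Tomosyn, a syntaxin-binding regulator of vesicle release, kept its main TSC (X:12525594-12525706, plus strand), with 132, 142 and 68.3 RPM at 20-23 h, against 279 and 227 RPM at 0-2 h. This TSC gave 53.7%, 53.3% and 48.1% of the reads of the gene at 20-23 h, against 99.9% and 100% at 0-2 h. A second TSC (X:12527602-12527668) had 90.9, 95.4 and 60.4 RPM at 20-23 h, against 0.242 and 0.068 RPM at 0-2 h, and another one (X:12526839-12526874) had 19.0, 23.3 and 13.1 RPM late and 0 reads early. The adjusted p of the gene was 8.78e-10 in limma and 2.92e-16 in edgeR.

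dl kept its main TSC as well (2L:17450193-17450371, minus strand), at 13.1, 15.5 and 13.1 RPM at 20-23 h, against 46.1 and 51.2 RPM at 0-2 h. A TSC that had 0 reads at 0-2 h (2L:17445559-17445579) was at 10.7, 7.77 and 10.5 RPM at 20-23 h and gave 36.6%, 24.1% and 40% of the reads (adjusted p = 1.23e-05 in limma and 1.33e-08 in edgeR). With TSCs of at least 10 RPM alone the call of dl was lost (adjusted p = 0.934), since the late TSC then left the comparison.

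M7BP, which encodes a binding partner of a myosin, lost most of its early TSC (2R:3510637-3510766, plus strand), with 1.45, 1.11 and 2.63 RPM at 20-23 h, against 22.0 and 14.6 RPM at 0-2 h. A pair of TSCs with 0 reads at 0-2 h replaced it. The first of them, 5602 bp downstream (2R:3516299-3516309), had 13.8, 9.99 and 23.6 RPM, and the second (2R:3524385-3524411) had 14.1, 3.33 and 7.88 RPM, at 20-23 h. The adjusted p of the gene was 8.58e-08 in limma and 3.97e-12 in edgeR, and M7BP itself lay near the edge of the rule and left the set in several alternatives.

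The other genes called by both tools were CG17698, galectin, P5CDh1, CG2841 and norpA, named here after their values were seen. CG17698 had the longest distance between its main TSCs, 9756 bp, and its late TSC (3L:23740834-23740878, plus strand) had 17.0, 18.9 and 21.0 RPM at 20-23 h and 0 reads of 602 at 0-2 h, which allows a share of up to 0.498% by the limit of 3 reads (Wilson upper bound 0.634%). In norpA, a phospholipase C, the main TSC was kept and a TSC with 0 reads at 0-2 h (X:4241938-4241979, plus strand) had 4.07, 8.88 and 5.25 RPM at 20-23 h. In P5CDh1, an enzyme of proline breakdown, both TSCs were used at both ends, and the upstream one (3L:21834302-21834474, minus strand) gave 73.7%, 73.9% and 92.3% of the reads at 20-23 h, against 28.7% and 30.0% at 0-2 h. These 5 genes thus ranged between a promoter seen at 1 end alone and a shift of weight between shared promoters.

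The time at which the late TSC overtook the early one varied among the 11 members whose main TSC differed. By the reads of each group and by the mean RPM of its windows alike, the late TSC was above the early one from 11-14 h on in slif, Gat and galectin, from 14-17 h on in CG9265, and from 17-20 h on in CG17698 and ACC. The other 5 members depended on the measure, the second of which was added after seeing the data. The time was 14-17 h by reads and 11-14 h by mean RPM for Adh and Adhr, 11-14 h and 14-17 h for Calx, 14-17 h and 17-20 h for M7BP, and 5-8 h (on 22 reads) and 8-11 h for P5CDh1. In ACC the order at 20-23 h was close to a tie, with 503 reads (49.8%) from the late TSC and 497 (49.2%) from the early one. Its place among the 11 members rests on this small difference.

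The same main promoter served both ends in 47 members. Among them are the 33 members with 1 TSC of at least 5 RPM, for which this was largely fixed in advance. Tomosyn, dl, CG2841 and norpA are also among them, although both tools called a changed use of their promoters. Gapdh2 took at least 99.3% of its reads at both ends from 1 TSC (X:15762166-15762269, plus strand), and Tpi had a single TSC (3R:25959934-25960037, minus strand). Of the members tested and not called by either tool, Mdh2, Picot, CG18135, Prx2, LpR1, FBgn0030758 and Vha68-2, the highest means over both ends were those of CG18135, Vha68-2 and FBgn0030758. The main TSC of CG18135 gave 98.9%, 98.8% and 98.6% of its reads at 20-23 h, against 99.2% and 97.6% at 0-2 h (adjusted p = 0.818 in limma and 0.705 in edgeR). Vha68-2, a subunit of the vacuolar proton pump, took 87.1%, 83.7% and 56.9% of its reads at 20-23 h from its main TSC (2L:12974306-12974409, plus strand), against 87.6% and 72.4% at 0-2 h (adjusted p = 0.896 in limma and 0.906 in edgeR).

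A last 3 members were called by edgeR alone. FBgn0026753 took 99.4%, 99.6% and 98.1% of its reads at 20-23 h from its main TSC (3R:15470016-15470175, minus strand), against 98.0% and 98.0% at 0-2 h (adjusted p = 0.128 in limma and 0.0104 in edgeR), a small shift on many reads. Akr1B took 96.4%, 98.7% and 94.4% at 20-23 h from its main TSC, against 86.4% and 79.1% at 0-2 h (adjusted p = 0.127 in limma and 0.0141 in edgeR). CG5805 had a second TSC at 16.6, 21.1 and 0 RPM at 20-23 h, against 0.484 and 0.952 RPM at 0-2 h (adjusted p = 0.0787 in limma and 6.64e-05 in edgeR), and the window at 0 was the shallow one of 22-23 h.

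The width of the promoters gave no contrast. The main TSC had a median width of 109 bp at 20-23 h and 113.5 bp at 0-2 h over the members, and of 115 bp and 116 bp over the other 2847 genes. A member had between 1 and 8 TSCs in all. Members that shared a TSC position with another gene were Adh and Adhr, GstD1 (with GstD9) and CG18135 (with CG3808), and their reads cannot be divided between these genes.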

How the data were processed

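RAMPAGE reads of 23 whole-embryo libraries were analysed from the gene and TSC tables. The authors aligned reads with STAR (version not given in the sources used here) to dm3, called TSCs on reads pooled over the series, and deposited RPM, reads per 1000000 reads counted in TSCs, with each gene as the sum of its TSCs. The deposited BED file gave TSC positions, and its score column, whose meaning is not stated, was not used. The deposited smoothed and aligned gene table was not used. All RPM values (100%, within 0.01 of a read) were whole multiples of 1 read, so reads were recovered exactly. Library depth was 286206 to 14705005 reads.

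Tests used limma 3.58.1 in R 4.3.3 on log2(RPM + 1), with all 23 libraries in 8 groups of neighbouring windows, as the files held RPM. Genes entered with at least 10 RPM in at least 3 libraries. Promoter use was tested with diffSplice (TSCs of at least 5 RPM as a mean of 0-2 h or 20-23 h). Log2 differences are on the scale of log2(RPM + 1) and understate changes of low genes. edgeR 4.0.16 and DESeq2 1.42.0 on recovered reads, TMM scaling, other filters and left-out libraries were alternatives. On simulated data the limma promoter test called too many genes whose total level changed, and edgeR fewer, so both are reported and statements rest on calls by both. Members and lists were chosen with earlier results of these data known. Genes named by a rule were the 15 members with the largest smaller ratio, up to 8 called and 4 uncalled members of the promoter test, members on a list, and the 3 genes on either side of the limit. Other genes in the text, Picot among them, were named after their values were seen. For these, single results with libraries left out are not given. Promoter sequence was not analysed here.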

Additional observations from a re-analysis of the deposited data

How the results depend on the processing

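The set had 33 genes with a limit of 6-fold and 38 with a minimum of 40 RPM, against 58 as reported, and 81 after TMM scaling (55 shared), 50 from reads pooled over windows, 80 with a limit of 3-fold and 76 with a minimum of 10 RPM. Leaving out 1 library gave 50 to 67 genes, and leaving out those of under 1000000 reads, an alternative chosen after seeing the data, gave 48 (46 shared). Of the 58 members, 40 met the rule after TMM scaling, in pooled reads and without any of these libraries, and 18, among them M7BP, SREBP, CG5805, FBgn0026753, ACC and CAH2, failed at least 1 of these. Without 0-1 h, 8 members were lost.

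At 17-20 h against 11-14 h, 987 of all genes were higher as reported, 1671 after TMM scaling, 1491 without a filter, 1504 in edgeR and 1614 in DESeq2, and 849 to 1051 with 1 library left out. The genes lower were 3227 as reported, 689 after TMM scaling, 702 in edgeR and 699 in DESeq2, and 2504 to 2965 with 1 library left out. The TMM factors shown in the report are lowest at 17-18 h. Members higher were 23 as reported, 35 after TMM scaling, 39 in edgeR, 44 in DESeq2, 14 without the libraries of under 1000000 reads, and 18 to 23 with 1 library left out. The number of members lower was 0 in each of these. Promoter use was called in 625 genes as reported, in 1253 of 2940 with a TSC minimum of 1 RPM, where more genes are tested, and in 506 to 630 with 1 library left out, and members called then numbered 15 to 17.

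Differences that changed sign were not past the threshold in either form. CG42365 went to -0.022 without 11-12 h, -0.14 without 19-20 h and -0.13 without the shallow libraries. dl went to -0.078 without 11-12 h, -0.14 without 12-13 h and -0.22 without the shallow libraries. GstD1 was 0.45 after TMM scaling, 0.46 in edgeR and 0.50 in DESeq2, and SREBP was 0.20, 0.39 and 0.42 there. The balance of the ends and the time of the promoter change moved with the measure, as given in the report. The cause was not tested. No paired analysis was possible because the windows of a group are different ages, each with 1 library, and their numbers follow that order alone. Depth limits the trough, where 3 reads were 10.5 RPM at 5-6 h, and the window of 22-23 h, where 3 reads were 7.88 RPM.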
